A study of Mus musculus with 6 samples.

Results

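The genes described here are the molecular chaperones of the lung and the factors that work with them. They were taken by gene symbol from the deposited count table. The rule took HSP90, HSP70 and HSP110 genes, small heat shock proteins (Hspb), J-domain proteins (HSP40, Dnaja, Dnajb and Dnajc), BAG factors, mitochondrial chaperonin genes and CCT chaperonin subunits. It added 6 HSP90 co-chaperone genes and the heat shock factors *Hsf1* and *Hsf2*. It found 94 of the 26100 rows, and 88 of them were among the 16633 rows with enough counts to be tested. The other 6 (*Dnajb7*, *Dnajb8*, *Dnajc5b*, *Dnajc5g*, *Hspb3* and *Cct8l1*) had between 0 and 39 counts over all libraries together. The RNA came from the lungs of 6 mice. The 3 WT and the 3 *Clec7a* knockout (KO) animals had all received bleomycin, a DNA-damaging drug, through the airway, and lungs were collected at day 14. *Clec7a* encodes dectin-1, a C-type lectin receptor for beta-glucan on myeloid cells. The sources used here do not state strain, age or how the knockout was made, and lungs without bleomycin were not analysed here.

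Chaperones bind unfolded or partly folded proteins and keep them from clumping. HSP70 proteins bind short hydrophobic stretches with the help of J-domain proteins, which stimulate their ATPase, and of HSP110 and BAG proteins, which release the nucleotide. HSP90 takes over selected clients, such as steroid receptors and kinases, with its co-chaperones, and the CCT ring folds actin and tubulin. When proteins misfold, as in heat, heat shock factor 1 binds heat shock elements in promoters and drives the inducible members. In fibrotic lung, chaperones have been studied mainly for collagen folding in the endoplasmic reticulum and for HSP90 clients in growth factor signalling.

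The libraries held between 31052936 and 34451956 counts. *Clec7a* was at 60.6, 84.0 and 196.5 CPM in the WT libraries and at 3.60, 6.85 and 2.84 CPM in the KO libraries (CPM is read counts relative to the TMM-scaled library size), and each KO value was below each WT value, as labelled. Alveolar type 2 markers of lung summed to 9553, 2630 and 1765 CPM in WT and 18495, 3282 and 9525 CPM in KO. All 6 of them and all 5 type 1 markers had higher estimates in KO (medians 1.22 and 0.42), with 1 of each at an unadjusted p under 0.05, and both sums were highest in KO replicate 1. That library also had 7.34% mitochondrial counts, against 2.69% to 3.87% in the others. Its sum of leukocyte markers was the highest (19308 CPM, against 3810 to 6922 CPM), but *Lyz2* alone gave 18786 CPM of it. As a mean of log2 levels centred per gene, the leukocyte list was highest in KO replicate 2 (0.42, against 0.37 in KO replicate 1). The part of cell makeup or RNA quality in the chaperone values was not tested. Both first replicates differed from the other libraries: Spearman correlations across genes were at most 0.947 for the 9 pairs with a first replicate and at least 0.959 for the other 6. Values are levels per tissue, and fewer cells of a type cannot be told apart from less RNA per cell. The design text gives 3 mice per genotype, and each p-value sets the genotype difference against the spread between mice.

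Taken as 1 set, the chaperone genes were not shifted to 1 side, and their subgroups differed in sign. edgeR's quasi-likelihood test with Benjamini-Hochberg adjustment over all genes called 0 members higher and 0 lower, as it called 0% of all genes in either direction, and no member had an adjusted p below 0.203. Counted without adjustment, 5 members were higher in KO and 4 lower at a p under 0.05, 10.2% of those tested. Over all genes the share was 11.8% (5.95% higher and 5.89% lower), so the set as a whole stood near the background. DESeq2 called 4 members higher and 1 lower, against 1.91% and 1.73% of all genes. In 10 members all KO libraries were higher than all WT libraries and in 10 they were lower, against 9.81% and 11.3% of all genes, together 21.1%. Estimates were positive for 50 members and negative for 38, against 49% and 51% of all genes, and the median log2 fold change (KO minus WT throughout) was 0.04, against -0.01.

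The count at an unadjusted p under 0.05 moved with single libraries. It was 12 higher and 4 lower without KO replicate 1, 18% of the members tested against 12.1% of all genes. Without WT replicate 1 it was 9 and 3, 13.6% against 15.6% of all genes. Without WT replicate 2 it was 4 and 1 (5.62% against 6.32%), and without WT replicate 3 it was 5 and 2 (7.87% against 9.23%). It was 4 and 2 without KO replicate 2 (6.74% against 9.28%) and also without KO replicate 3 (6.82% against 8.07%). The members' share was thus below that of all genes in 5 of these 6 fits. When both first replicates were left out, an alternative chosen after seeing the data, it was 27 higher and 10 lower, 42.5% of the members tested, against 30% of all genes.

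**Figure D1:**
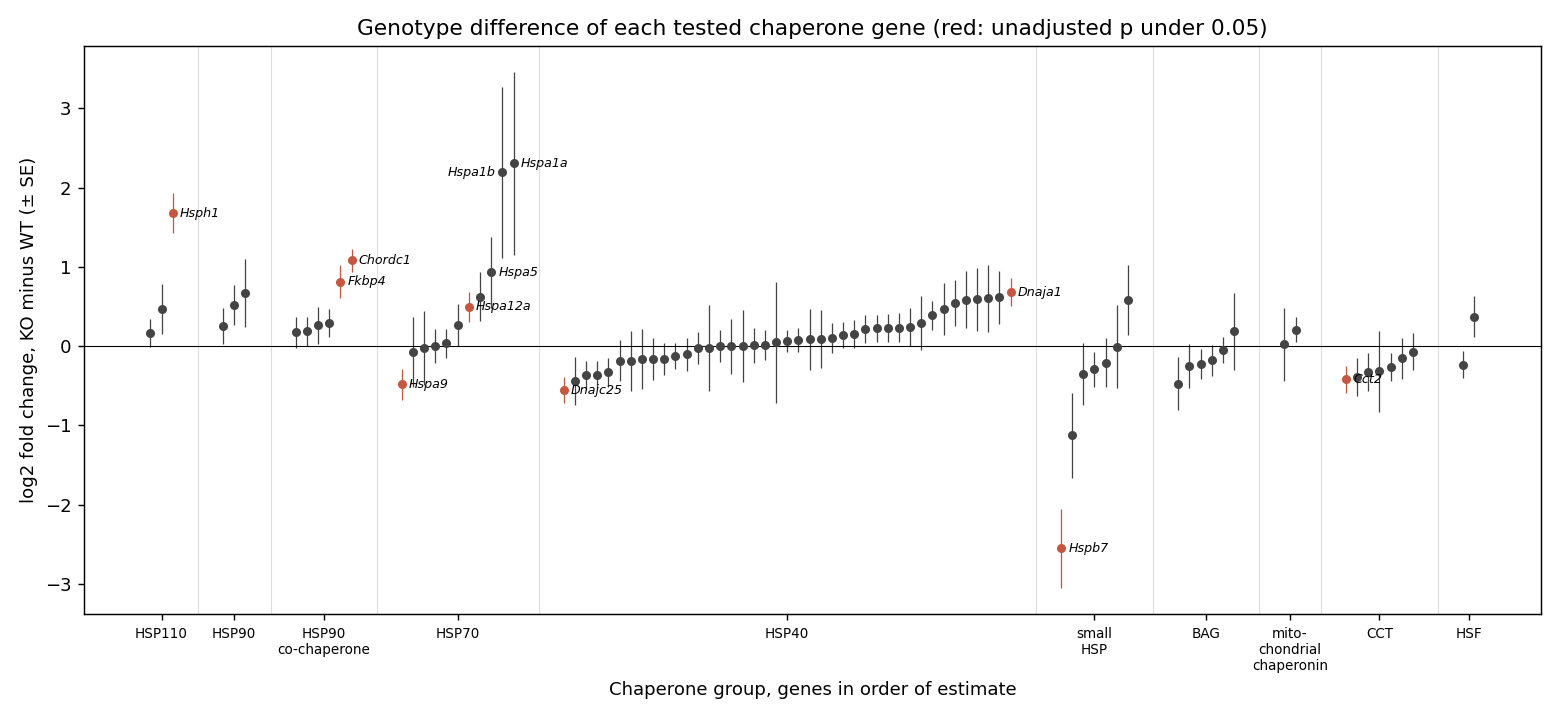
Each point is 1 tested gene, ordered by its estimate within its chaperone group, and the y axis gives the edgeR log2 fold change, KO minus WT, with its SE as a bar. All 12 points of the HSP110, HSP90 and HSP90 co-chaperone groups lie above 0 and all 7 CCT points lie below it. The 9 red points have an unadjusted p under 0.05.

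All 12 tested genes of HSP110, HSP90 and the HSP90 co-chaperones had higher estimates in KO, with a median log2 fold change of 0.38. These 12 pool 3 groups that are otherwise kept apart, with medians of 0.47, 0.52 and 0.28. Of the 12, 3 (*Hsph1*, *Chordc1* and *Fkbp4*) had an unadjusted p under 0.05, and 5.95% of all genes were higher at that p. For 5 of the 12 every KO library was above every WT library, which held for 9.81% of all genes. All 7 tested CCT genes had lower estimates, with a median of -0.32, and 1 of them had an unadjusted p under 0.05. They include the testis form *Cct6b*, at 0.23 to 0.46 CPM, whose estimate is that median. The small heat shock proteins had 1 estimate higher and 6 lower, and 1 of the lower, *Hspb7*, had an unadjusted p under 0.05. Beside these counts for CCT and small heat shock proteins, the share of all genes lower at that p was 5.89%. The tests behind these counts are those of the single genes below, and no direction of a group as such was tested.

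The promoters of some of these genes are shown because the heat shock element is the sequence by which heat shock factors reach chaperone genes. The RefSeq table (GRCm38.p6) held promoters for 77 of the 94 members, as windows of 300 bases from 250 before to 50 after a start. Capitals mark the 2-unit element, GAANNTTC or TTCNNGAA, searched on both strands. Both forms read the same on either strand, and neighbouring matches may overlap. A 3-unit element adds 1 more alternating unit (GAA, TTC and GAA, or TTC, GAA and TTC, each separated by NN) and contains both 2-unit forms.
Hsph1, chr5:149636266-149636565, minus strand: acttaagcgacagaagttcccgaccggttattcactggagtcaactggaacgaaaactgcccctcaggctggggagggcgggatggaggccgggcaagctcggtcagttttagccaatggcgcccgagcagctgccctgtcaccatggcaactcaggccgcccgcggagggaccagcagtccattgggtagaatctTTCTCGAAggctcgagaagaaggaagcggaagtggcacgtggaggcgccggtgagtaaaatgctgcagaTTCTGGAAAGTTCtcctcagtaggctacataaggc
Chordc1, chr9:18292017-18292316, plus strand: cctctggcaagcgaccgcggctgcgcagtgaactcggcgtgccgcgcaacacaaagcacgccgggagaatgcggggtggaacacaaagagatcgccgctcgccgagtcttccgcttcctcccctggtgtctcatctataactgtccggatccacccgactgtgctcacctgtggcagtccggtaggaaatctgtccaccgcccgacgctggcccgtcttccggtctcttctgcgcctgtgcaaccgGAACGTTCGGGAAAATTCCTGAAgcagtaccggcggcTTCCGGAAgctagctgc
Fkbp4, chr6:128438607-128438906, minus strand: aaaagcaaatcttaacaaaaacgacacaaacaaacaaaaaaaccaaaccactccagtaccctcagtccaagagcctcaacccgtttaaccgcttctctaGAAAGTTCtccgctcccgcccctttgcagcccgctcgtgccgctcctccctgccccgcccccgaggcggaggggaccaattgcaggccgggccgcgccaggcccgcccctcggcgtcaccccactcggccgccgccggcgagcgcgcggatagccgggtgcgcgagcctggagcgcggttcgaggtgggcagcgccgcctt
Hspa1b, chr17:34959189-34959488, minus strand: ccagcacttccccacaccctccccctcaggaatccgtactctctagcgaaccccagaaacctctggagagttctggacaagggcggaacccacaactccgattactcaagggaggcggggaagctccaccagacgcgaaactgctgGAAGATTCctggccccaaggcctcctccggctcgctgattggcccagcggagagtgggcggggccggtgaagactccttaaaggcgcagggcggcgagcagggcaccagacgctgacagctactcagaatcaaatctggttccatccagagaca
Hspe1, chr1:55087898-55088197, plus strand: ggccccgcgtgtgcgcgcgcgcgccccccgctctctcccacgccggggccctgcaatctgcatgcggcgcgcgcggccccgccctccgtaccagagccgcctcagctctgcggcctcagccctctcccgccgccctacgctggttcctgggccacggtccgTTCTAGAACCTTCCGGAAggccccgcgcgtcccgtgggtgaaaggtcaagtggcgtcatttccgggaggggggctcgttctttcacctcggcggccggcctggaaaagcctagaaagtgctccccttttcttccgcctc

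The 2 members of smallest p, *Chordc1* and *Hsph1*, both held a 3-unit element. In the *Chordc1* window the matches formed a run of 23 bases that began 4 bases before the start, with a further 2-unit match beginning 33 bases after it. In the *Hsph1* window an 8-base match lay 54 bases before the start and a 13-base 3-unit match began 15 bases after it. A 3-unit element was in 5 of the 77 member genes (6.49%), against 0.662% of the 27025 genes in the table, and a 2-unit element in 22 (28.6%), against 17%. The other 3 genes with a 3-unit element were *Dnajb6*, *Hspd1* and *Hspe1*. *Hspd1* and *Hspe1* hold the same run of 18 bases, read from opposite strands, so 1 site is counted for both genes. The log2 fold changes of the 3 genes were 0.10, 0.21 and 0.02. The relation between such an element and the fold change was not tested. *Fkbp4* and *Hspa1b* held single 2-unit matches that began 151 and 104 bases before the start. A match describes letters and is not a measured binding site. The 17 members without an entry, among them *Hsp90aa1*, *Hsp90ab1*, *Hspa8* and *Hsf1*, were not searched.

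*Hsph1* (ENSMUSG00000029657, GRCm38 chromosome 5, 149614287 to 149636376, minus strand) encodes HSP105, the stress-inducible HSP110 protein that exchanges nucleotide on HSP70. It was at 34.5, 35.6 and 31.3 CPM in WT and at 72.3, 131.9 and 120.7 CPM in KO. Every KO library was above every WT library, and KO replicate 1 was the lowest of the KO libraries. The means were 33.8 ± 2.2 and 108.3 ± 31.6 CPM (SD, n = 3 each), 3.20-fold, with a log2 fold change of 1.68 ± 0.26 (SE), an edgeR adjusted p of 0.203 and a DESeq2 adjusted p of 1.36e-05. The other HSP110 genes differed less. *Hspa4*, the constitutive member, had 198.1, 209.8 and 198.0 CPM in WT and 257.9, 208.3 and 215.6 CPM in KO, and the genotypes overlapped (0.17 ± 0.18). *Hspa4l* was highest in WT replicate 1 and KO replicate 3, at 85.1 and 106.3 CPM, and its log2 fold change of 0.47 ± 0.32 was 0.25 without KO replicate 3 and 0.81 without WT replicate 1.

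*Chordc1* (ENSMUSG00000001774, chromosome 9, 18292125 to 18317442, plus strand) encodes CHP1, also called morgana, an HSP90 co-chaperone with zinc-binding CHORD domains. The WT libraries were at 37.1, 36.2 and 36.5 CPM and the KO libraries at 77.8, 81.1 and 74.0 CPM. The spread within each genotype was small, and the first replicates lay close to the others here. The means were 36.6 ± 0.47 and 77.6 ± 3.5 CPM, 2.12-fold, with a log2 fold change of 1.08 ± 0.14, an edgeR adjusted p of 0.203 and a DESeq2 adjusted p of 4.64e-07. It ranged from 1.05 to 1.12 when each library was left out in turn. A processed pseudogene overlaps the gene by 1819 bases on the other strand, and reads of the 2 could be mixed if strand was not used.

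*Fkbp4* (ENSMUSG00000030357, chromosome 6, 128429735 to 128438677, minus strand) encodes FKBP52, the peptidyl-prolyl isomerase that attends steroid receptors on HSP90. It was at 73.8, 56.5 and 51.7 CPM in WT and at 118.1, 90.9 and 110.7 CPM in KO, without overlap. The log2 fold change was 0.81 ± 0.21, with an edgeR adjusted p of 0.256 and a DESeq2 adjusted p of 0.0487. *Fkbp4* lies 1.02 Mb from *Clec7a* on the same chromosome, and the part of that position in the difference was not tested. The other co-chaperones were closer between genotypes. *Ahsa1* and *Ahsa2*, activators of the HSP90 ATPase, had 0.18 ± 0.18 and 0.29 ± 0.17. *Ptges3* (p23, which holds the closed HSP90 dimer) had 0.26 ± 0.24, and *Stip1* (HOP, which joins HSP70 to HSP90) had 0.17 ± 0.19. All 4 overlapped between the genotypes.

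Among the HSP90 genes themselves, *Hsp90ab1*, the constitutive cytosolic form, was the most abundant per length, at 453.3 ± 30.5 FPKM in WT and 564.9 ± 19.1 FPKM in KO (FPKM is fragments scaled to gene length and library size). Its CPM values were 1285, 1266 and 1096 in WT and 1539, 1416 and 1397 in KO, without overlap, and the log2 fold change was small (0.25 ± 0.23). *Hsp90b1*, the endoplasmic reticulum form GRP94, was at 493.6, 735.4 and 639.9 CPM in WT and at 1016, 842.4 and 821.3 CPM in KO. These did not overlap either, and the log2 fold change was 0.52 ± 0.25 (edgeR adjusted p 0.474). *Hsp90aa1*, the inducible cytosolic form, had 703.1, 400.0 and 322.4 CPM in WT and 1133, 502.0 and 636.8 CPM in KO. Its first replicates were the highest of each genotype, the genotypes overlapped, and the log2 fold change was 0.67 ± 0.43.

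**Figure D2:**
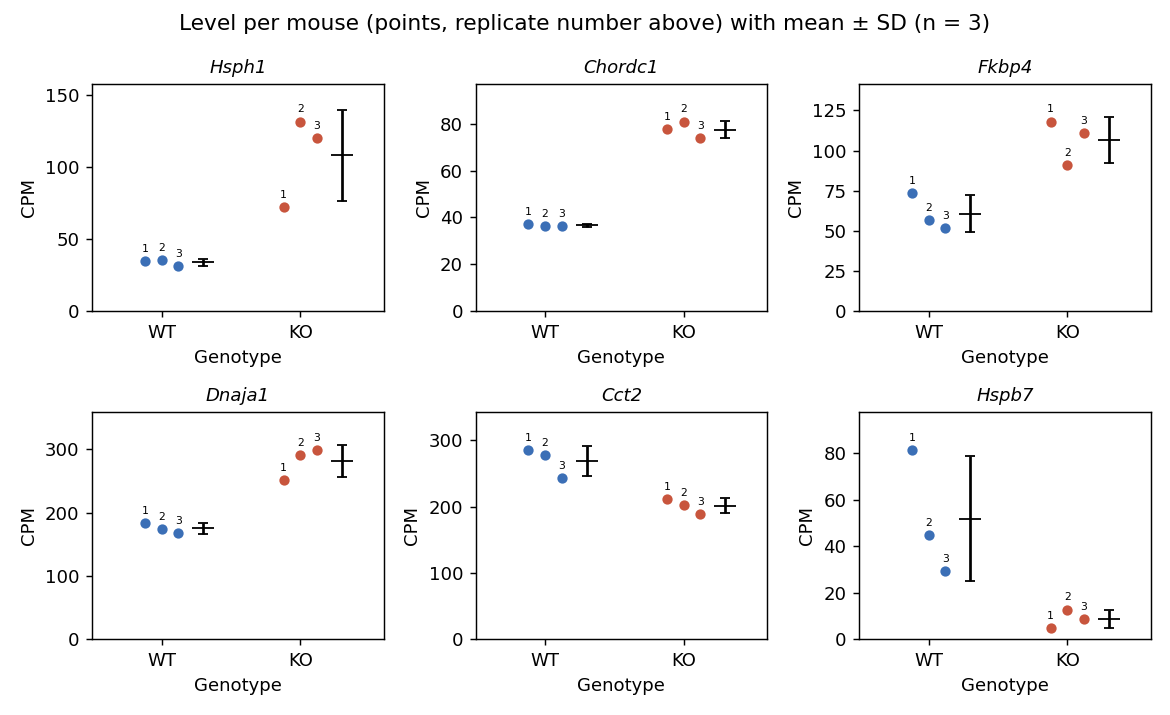
The 6 panels plot CPM on the y axis, from 0, for each mouse by genotype (points, replicate number above them), with the mean ± SD of 3 mice beside them. The WT points of Chordc1 lie between 36.2 and 37.1 CPM and its KO points between 74.0 and 81.1 CPM. In Hsph1, Fkbp4 and Dnaja1 the KO points also lie above the WT points, and in Cct2 and Hspb7 below them.

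HSP90 partners outside the rule did not all lie on 1 side. Of 22 genes listed, 9 had higher and 13 lower estimates, with a median of -0.08, and 2 higher and 1 lower had an unadjusted p under 0.05. Each KO library was above each WT library for *Ppid*, *Cdc37l1*, *Trap1* and *Unc45b*, and below for *Fkbp5*, and the others overlapped. Over all genes such separation held for 9.81% above and 11.3% below. *Ppid*, the cyclophilin 40 gene, was at 17.7, 22.7 and 25.9 CPM in WT and at 47.5, 39.3 and 37.9 CPM in KO, and every KO value was higher (0.91 ± 0.21, edgeR adjusted p 0.234, DESeq2 0.0208). *Fkbp5*, the glucocorticoid-induced relative of *Fkbp4*, went the other way. It was at 284.9, 240.5 and 141.4 CPM in WT and at 33.6, 116.5 and 73.1 CPM in KO, again without overlap (-1.58 ± 0.49, edgeR adjusted p 0.308, DESeq2 0.0433). *Fkbp4* and *Fkbp5*, immunophilins that bind the same tail of HSP90, had estimates of opposite sign.

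The HSP70 genes divided into steady and variable members. *Hspa8*, the constitutive cytosolic HSC70, was the most abundant of all 94 genes per length, at 594.1 ± 76.7 FPKM in WT and 753.2 ± 107 FPKM in KO. Its CPM values were 1797, 1475 and 1285 in WT and 1629, 2078 and 1796 in KO, and they overlapped (0.27 ± 0.26). *Hspa5*, the endoplasmic reticulum chaperone BiP, was at 530.8, 827.8 and 860.5 CPM in WT and at 670.9, 1987 and 1568 CPM in KO. KO replicates 2 and 3 were above all WT libraries and KO replicate 1 was below WT replicates 2 and 3. The log2 fold change was 0.93 ± 0.45 (edgeR adjusted p 0.474), and it was 1.27 without KO replicate 1 and 0.60 without KO replicate 2. Of 14 tested genes of endoplasmic reticulum folding and its stress response, which include *Hspa5* and *Hsp90b1*, 10 had higher and 4 lower estimates, with a median of 0.16 and 1 lower at an unadjusted p under 0.05. That gene was *P4hb*, a disulfide isomerase and prolyl hydroxylase subunit (-0.55 ± 0.22). The 6 fibroblast markers had 1 higher and 5 lower estimates, with a median of -0.65. They summed to 4683, 17000 and 19388 CPM in WT and 2163, 12908 and 6970 CPM in KO, which overlapped. Their part in the *P4hb* value was not tested. The co-chaperone *Sdf2l1* had 0.57 ± 0.24.

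The most variable members were *Hspa1a* and *Hspa1b*, the stress-inducible HSP70 pair. *Hspa1a* was at 14.6, 32.4 and 38.4 CPM in WT and at 6.92, 321.2 and 93.8 CPM in KO. *Hspa1b* was at 28.5, 36.8 and 44.0 CPM in WT and at 9.76, 379.1 and 110.4 CPM in KO. For both genes KO replicate 1 was the lowest of the 6 libraries and KO replicate 2 the highest, so the 2 extremes lay within 1 genotype. The copies are nearly identical, with 4 differing bases in their 300-base promoter windows, and the sources used here do not state how shared reads were divided. Summed over the pair, the levels were 43.0, 69.2 and 82.4 CPM in WT and 16.7, 700.3 and 204.2 CPM in KO, the same order. The log2 fold changes of 2.30 ± 1.16 and 2.19 ± 1.08 did not pass the test (edgeR adjusted p 0.495 and 0.488).

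KO replicate 1 was also the lowest library for *Dnajb1* and *Hspb1*, chosen after their values were seen, but not for all inducible members. *Hsp90aa1* was highest there, at 1133 CPM, and *Hsph1* in that library, at 72.3 CPM, was above every WT value. *Dnajb1*, the HSP40 partner of inducible HSP70, was at 68.5, 56.8 and 63.3 CPM in WT and at 48.5, 132.9 and 101.8 CPM in KO. *Hspb1*, which encodes the small heat shock protein HSP25, was at 184.2, 149.3 and 146.5 CPM in WT and at 96.6, 311.1 and 312.6 CPM in KO. In both genes KO replicates 2 and 3 were above every WT library and KO replicate 1 below every one. Their log2 fold changes were 0.59 ± 0.36 and 0.59 ± 0.44. When both first replicates were left out, *Hspb1* was at 1.08 with an edgeR adjusted p of 0.0432, and *Hsph1* (1.92, 0.0251) and *Chordc1* (1.10, 0.0432) were the other 2 members called. These are 3 of the 87 members in that fit, in which 0.108% of all genes were called higher and 0.167% lower.

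Immediate early genes, transcription factors and other genes that switch on within minutes of handling or injury, separated both first replicates from the other libraries. The 15 genes listed summed to 1015 CPM in WT replicate 1 and 826.8 CPM in KO replicate 1, against 5531 to 9283 CPM in the other 4 libraries. Between genotypes 11 had higher and 4 lower estimates, and 0 had an unadjusted p under 0.05. The cold-inducible RNA-binding genes *Cirbp* and *Rbm3* did not overlap between genotypes and had lower KO values, with *Cirbp* at 86.0, 65.7 and 64.5 CPM in WT and 25.0, 17.9 and 22.4 CPM in KO. Of 15 clock genes, which set daily rhythms, 5 had higher and 10 lower estimates, and 1 lower, the repressor gene *Cry1* (-0.90 ± 0.32), had an unadjusted p under 0.05. The part that the influences on these genes had in the chaperone values was not tested.

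**Figure D3:**
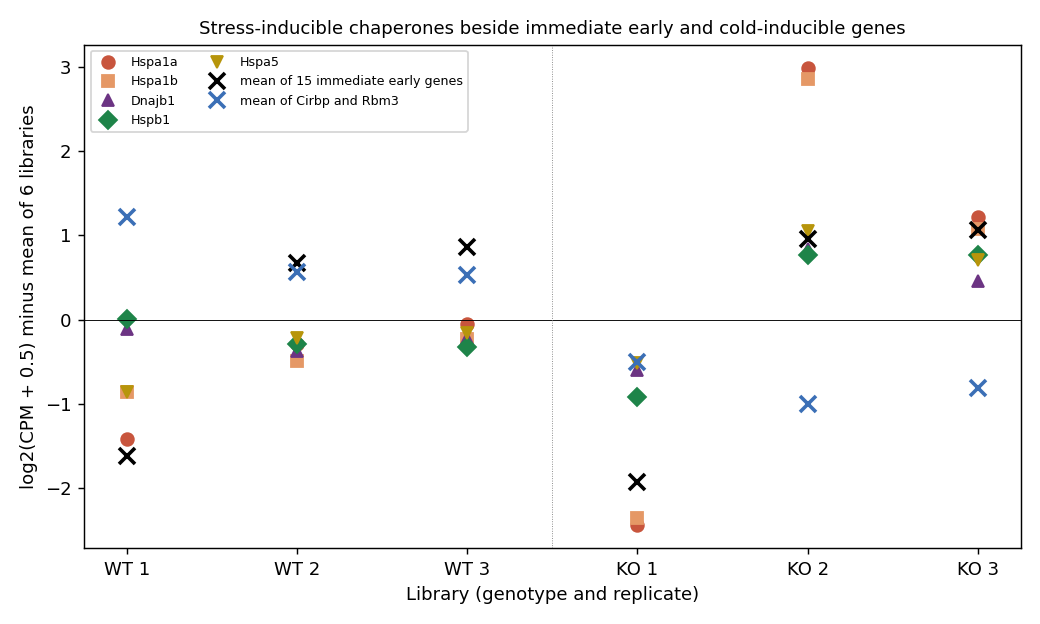
The y axis gives log2(CPM + 0.5) minus the mean of the 6 libraries, for 5 inducible chaperone genes and for the means of 15 immediate early genes and of Cirbp and Rbm3, and the x axis lists the libraries. The Hspa1 pair and the immediate early mean are both low in WT replicate 1 and KO replicate 1. The immediate early mean is high in WT replicates 2 and 3 too (0.67 and 0.86), where both genes of the Hspa1 pair lie below 0. For Hspa1b the step from WT replicate 1 (28.5 CPM) to WT replicate 2 (36.8 CPM) is small. The cold-inducible mean is above 0 in WT and below 0 in KO.

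The only HSP70 genes with an unadjusted p under 0.05 were *Hspa9* and *Hspa12a*. *Hspa9*, the mitochondrial HSP70 mortalin that pulls proteins into the matrix, was at 305.1, 283.0 and 251.0 CPM in WT and at 226.6, 175.9 and 198.7 CPM in KO. Every KO library was below every WT library (-0.48 ± 0.19, edgeR adjusted p 0.41). *Hspa12a*, a distant HSP70 relative, was at 14.5, 19.1 and 20.8 CPM in WT and at 25.1, 26.2 and 25.3 CPM in KO (0.49 ± 0.19, edgeR adjusted p 0.402). Its relative *Hspa12b*, which is known from endothelium, had 0.63 ± 0.30 and overlapped. The 5 endothelial markers all had higher estimates, with 0 at an unadjusted p under 0.05 and sums between 651.8 CPM in WT replicate 1 and 2596 CPM in KO replicate 3. Their part in the *Hspa12b* value was not tested. Of 12 HSP70 partners outside the rule, 4 had higher and 8 lower estimates. The nucleotide exchange factor *Sil1* of the endoplasmic reticulum (-0.48 ± 0.19) was the 1 with an unadjusted p under 0.05, and *Sgta*, which hands tail-anchored proteins on, had -0.39 ± 0.17.

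J-domain proteins were the largest group, with 41 of 45 tested, 25 higher and 16 lower, and a median of 0.07. *Dnaja1* (ENSMUSG00000028410, chromosome 4, 40722150 to 40737149, plus strand), a farnesylated cytosolic partner of HSC70, had the smallest p of them. It was at 183.9, 173.8 and 167.2 CPM in WT and at 251.9, 291.5 and 299.1 CPM in KO, without overlap (0.68 ± 0.18, edgeR adjusted p 0.26, DESeq2 0.014). Its gene model overlaps *Smu1* by 608 bases on the other strand. *Dnajc25* was the other J-domain gene with an unadjusted p under 0.05, at 25.0, 28.1 and 24.5 CPM in WT and 16.0, 18.9 and 17.9 CPM in KO (-0.55 ± 0.17, edgeR adjusted p 0.296). A coding gene model on the same strand overlaps it by 22364 bases, so its counts are uncertain.

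Most other J-domain genes differed little. *Dnajc3*, the P58IPK co-chaperone of BiP and 1 of the 2 most abundant J-domain genes by CPM, had 207.3, 236.8 and 213.4 CPM in WT and 235.9, 260.5 and 275.9 CPM in KO (0.23 ± 0.18). Its partners in the endoplasmic reticulum, *Dnajb9* and *Dnajb11*, had 0.23 ± 0.17 and 0.08 ± 0.15, whereas the disulfide reductase *Dnajc10* was lower in every KO library (-0.33 ± 0.19). The synaptic vesicle protein gene *Dnajc5* (-0.36 ± 0.17) and *Dnajb12* (-0.37 ± 0.18) also had no overlap. In the other direction, *Dnajc18* (0.39 ± 0.18) and *Dnajc7* (0.07 ± 0.14) were higher in every KO library. Of the 41 tested J-domain genes, 3 were higher and 4 lower in every KO library, against 9.81% and 11.3% of all genes. *Dnajb13*, a radial spoke protein of motile cilia, had 0.62 ± 0.33 and overlapped. The 16 ciliated cell markers summed to 499.7, 141.6 and 91.3 CPM in WT and 207.9, 248.5 and 476.6 CPM in KO, and their part in that value was not tested.

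Among small heat shock proteins, *Hspb7* (ENSMUSG00000006221, chromosome 4, 141420779 to 141425311, plus strand) had the smallest p. It is best known from heart and other muscle, where its protein binds filamin. It was at 81.6, 44.9 and 29.2 CPM in WT and at 4.90, 12.8 and 8.82 CPM in KO. All KO libraries were below all WT libraries. The means were 51.9 ± 26.9 and 8.84 ± 3.95 CPM, 5.87-fold lower in KO, with a log2 fold change of -2.55 ± 0.50, an edgeR adjusted p of 0.216 and a DESeq2 adjusted p of 9.42e-05. Without WT replicate 1, its highest library, the log2 fold change was -2.07.

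Muscle markers were read beside *Hspb7*. The striated muscle list had 7 higher and 8 lower estimates of 15 tested, with a median of -0.18. It summed to 495.6, 78.5 and 88.8 CPM in WT and 161.9, 190.0 and 378.7 CPM in KO. Like *Hspb7*, it was highest in WT replicate 1, and its KO and WT sums overlapped. Its part in the *Hspb7* value was not tested. Of that list the 2 members of smallest p are named, which do not stand for the 8 with lower estimates. *Ckm*, the muscle creatine kinase, had a higher estimate in KO (2.52 ± 0.47, edgeR adjusted p 0.203, DESeq2 adjusted p 5.61e-05), and *Ttn*, titin, had 1.77 ± 0.78. The smooth muscle and myofibroblast list had 4 higher and 6 lower, 5 of the lower with an unadjusted p under 0.05, and a median of -0.79. Over all genes 5.89% were lower at that p. The sums of the smooth muscle list were 1599, 2309 and 2352 CPM in WT and 620.5, 1674 and 1137 CPM in KO, and they overlapped. Its 2 members of smallest p were *Tpm2* (-1.31 ± 0.24) and *Des* (-1.18 ± 0.34), whereas 4 of the list had higher estimates. The part of smooth muscle content in the *Hspb7* value was not tested.

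The other small heat shock proteins were closer. *Hspb6*, known from smooth muscle, was at 9.21, 10.1 and 8.61 CPM in WT and at 6.82, 7.77 and 8.23 CPM in KO, without overlap (-0.29 ± 0.22). *Hspb8*, the partner of BAG3, had 138.2, 81.5 and 67.1 CPM in WT and 96.6, 68.6 and 83.1 CPM in KO, and its estimate of -0.21 ± 0.31 turned to 0.15 without WT replicate 1. *Hspb9* was low in all libraries, between 0.35 and 2.06 CPM (-1.12 ± 0.54). *Hspb2* (-0.35 ± 0.39) overlaps its neighbour *Cryab*, the alpha-B crystallin gene, by 1030 bases on the other strand, so their counts may be mixed. *Cryab* had 0.70 ± 0.64. The group median of -0.29 was 0.02 without WT replicate 1. *Hspb11*, named for this family although its protein is the cilium transport subunit IFT25, had -0.01 ± 0.52.

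BAG factors, which dock on the HSP70 ATPase domain, had 1 higher and 5 lower estimates of 6, and 0 had an unadjusted p under 0.05. *Bag1* was at 269.4, 145.6 and 142.9 CPM in WT and at 364.4, 130.3 and 140.1 CPM in KO. Its first replicates were high in both genotypes, and its log2 fold change of 0.19 ± 0.48 turned to -0.46 without KO replicate 1. *Bag6*, a quality control factor for membrane proteins, had 152.1, 173.8 and 175.1 CPM in WT and 119.4, 158.3 and 164.4 CPM in KO (-0.18 ± 0.19). *Bag3*, a heat-inducible factor of chaperone-assisted autophagy, was at 89.0, 98.7 and 93.0 CPM in WT and 49.8, 83.0 and 103.3 CPM in KO (-0.25 ± 0.28), with its lowest value in KO replicate 1.

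The CCT ring is built from different subunits in fixed proportion. The 7 tested genes of this group, 1 of them a testis form of low level, lay on the same side. *Cct2* (ENSMUSG00000034024, chromosome 10, 117051001 to 117063814, minus strand) was the 1 with an unadjusted p under 0.05. It was at 285.7, 278.0 and 243.7 CPM in WT and at 211.6, 202.9 and 189.0 CPM in KO, without overlap (-0.42 ± 0.18, edgeR adjusted p 0.42, DESeq2 0.308). *Cct3* (-0.39 ± 0.24), *Cct5* (-0.33 ± 0.24), *Cct8* (-0.26 ± 0.18), *Cct7* (-0.15 ± 0.26) and *Cct4* (-0.07 ± 0.23) overlapped between genotypes. *Cct5* had 267.2, 203.6 and 174.9 CPM in WT and 210.6, 152.3 and 151.5 CPM in KO, with the first replicate highest in each. *Cct6b*, the testis form, was under 0.5 CPM in each library (-0.32 ± 0.51), and *Cct6a* was not among the members found. The group median was between -0.46 and -0.17 when each library was left out in turn.

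*Tcp1*, the CCT1 subunit that the symbol rule does not take in, had -0.33 ± 0.22, on the same side. Prefoldin subunits and phosducin-like factors, which bring actin and tubulin to the ring, were divided. With *Tcp1* they numbered 9, of which 4 had higher and 5 lower estimates, with a median of -0.04 and 0 at an unadjusted p under 0.05. All 12 cell cycle genes listed, which mark dividing cells, also had lower estimates in KO (median -0.57), 3 of them with an unadjusted p under 0.05, among them the mitotic cyclin genes *Ccnb2* (-0.85 ± 0.27) and *Ccnb1* (-0.88 ± 0.30). Their sums were 281.1, 680.5 and 588.1 CPM in WT and 366.7, 470.6 and 319.0 CPM in KO, which overlapped, and the part of dividing cells in the CCT values was not tested.

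**Figure D4:**
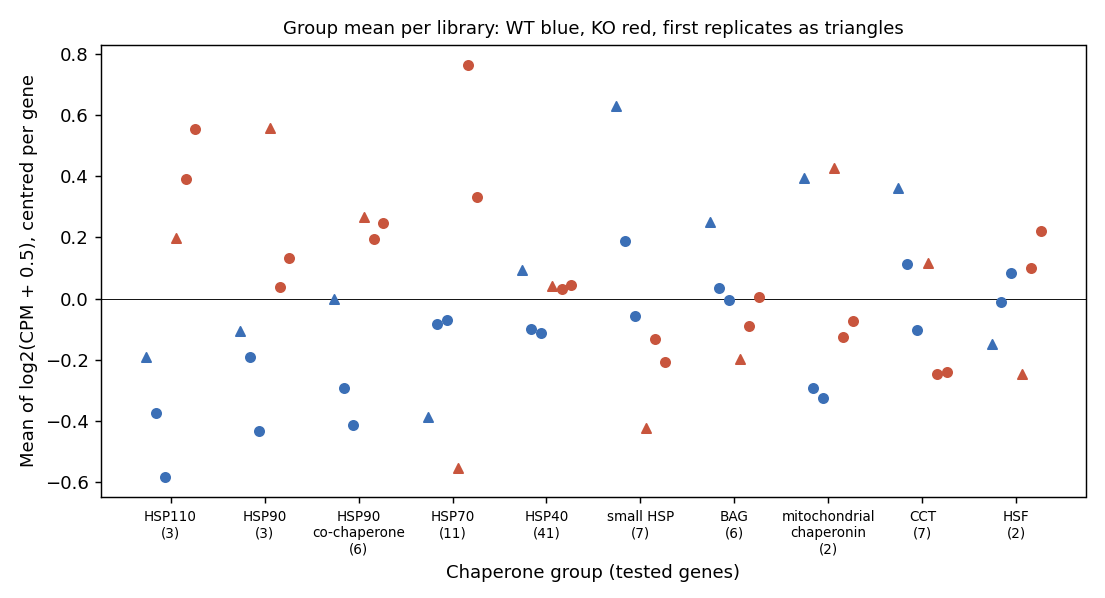
Each point is the mean over a group's tested genes of log2(CPM + 0.5), centred per gene on the 6 libraries, for 1 library (WT blue, KO red, first replicates as triangles). The KO points of HSP110, HSP90 and the HSP90 co-chaperones lie above the WT points, as read from 3, 3 and 6 genes. In HSP70 the KO points range from -0.55 to 0.76, and in CCT the KO first replicate (0.12) lies among the WT points.

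The mitochondrial chaperonin genes share 1 bidirectional promoter, shown above from the *Hspe1* side, whose 18-base run of heat shock elements begins 89 bases before the *Hspe1* start. *Hspd1*, which encodes HSP60, was at 147.1, 144.7 and 131.0 CPM in WT and at 170.4, 154.7 and 163.4 CPM in KO, without overlap and with a small difference (0.21 ± 0.16). *Hspe1*, which encodes its lid HSP10, was at 57.4, 22.3 and 23.5 CPM in WT and at 51.7, 26.3 and 26.8 CPM in KO (0.02 ± 0.46). Its first replicates were well above the others in both genotypes, which *Hspd1* did not share, so the 2 genes of the pair did not keep 1 ratio. The gene models overlap by 112 bases on opposite strands.

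Neither heat shock factor gene passed the test. *Hsf1*, the main activator of the heat shock response, was at 19.8, 24.6 and 24.7 CPM in WT and at 20.0, 34.6 and 34.8 CPM in KO (0.37 ± 0.26, edgeR adjusted p 0.624). KO replicates 2 and 3 were above all WT libraries and KO replicate 1 was not. *Hsf2*, known from development, was at 19.3, 18.9 and 21.5 CPM in WT and at 16.6, 15.7 and 18.5 CPM in KO, lower in every KO library (-0.23 ± 0.17, edgeR adjusted p 0.645). Of 3 tested related genes, *Hsf4* had -0.36 ± 0.25. HSF1 acts through modification of its protein, which mRNA levels do not measure. Among 7 other genes induced by HSF1, 3 had higher and 4 lower estimates, with a median of -0.08 and 0 at an unadjusted p under 0.05. *Zfand2a*, which encodes a heat-inducible partner of the proteasome, had -0.20 ± 0.15, and *Dedd2* had -0.37 ± 0.30.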

How the data were processed

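Lung RNA of 3 WT and 3 KO mice was measured. Extraction used TRIzol and library preparation an NEBNext Ultra kit, per the labels' protocols. The submitters' processing notes list HISAT2 2.0.4, StringTie 1.3.4d and GRCm38 with no role. Raw read counts and FPKM values were deposited by the authors as separate tables. The sources used here do not state the strand setting, the annotation release or how shared reads were treated. KO columns with FPKM values have an unexplained suffix and were used without replicate numbers. Depth of 31052936 to 34451956 counts limits mainly genes of low level.

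edgeR 4.0.16 (R 4.3.3) was run on all genes kept by filterByExpr, with TMM factors, a robust quasi-likelihood fit on genotype, 2-sided tests and Benjamini-Hochberg adjustment over 16633 genes (threshold 0.05). SE is the absolute log2 fold change over the root of F. Alternatives were DESeq2 1.42.0, limma-voom (limma 3.58.1), other scalings and filters, limma with a trended prior on log2(FPKM + 1) and log2(FPKM + 0.1), a replicate block, and each library left out. Coordinates come from GENCODE M21 (GRCm38), which held all 94 members. Per-gene counts of overlapping, near-identical or antisense genes are uncertain.

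The members, lists and rules were chosen with earlier results of these data known. The rule for named genes took members past the threshold (0), those with an unadjusted p under 0.05 at a mean of at least 1 CPM (9), the 2 of highest CPM per group, *Hsf1* and *Hsf2*, and the 2 members of smallest p of each other list. Others named here, among them *Hsp90aa1*, *Hspa1a*, *Hspa1b*, *Dnajb1* and *Bag3*, were chosen after their values were seen. The scripts were tested on simulated data, in which edgeR recovered 10% of genes changed 2-fold and 50% of those changed 4-fold. DESeq2 recovered 26% and 82% of them. Of the 16633 genes simulated, edgeR called 4 unchanged genes and DESeq2 called 82.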

Additional observations from a re-analysis of the deposited data

How the results depend on the processing

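edgeR called 0 chaperone genes in either direction under each scaling, filter and leave-one-out fit (lowest and highest 0). limma-voom and limma on FPKM also called 0. DESeq2 called 4 higher (*Chordc1*, *Hsph1*, *Fkbp4*, *Dnaja1*) and 1 lower (*Hspb7*). With both first replicates left out, chosen after seeing the data, edgeR called 3 of 87 higher and 0 lower, against 18 and 28 of 16744 genes in all, and 30% of all genes had an unadjusted p under 0.05. The median log2 fold change over all members was between 0.038 and 0.19 when each library was left out, highest without WT replicate 1. Among named genes, 444 of 459 alternative values kept their direction and side of the threshold. Estimates turned for *Hspb8* (0.037) and *Bag1* (-0.085) with both first replicates left out, and in the leave-one-out fits *Hspb8* ranged from -0.41 to 0.15, *Bag1* from -0.46 to 0.55 and *Hspe1* from -0.37 to 0.61. The cause was not tested. The median of the mitochondrial chaperonin pair ranged from -0.10 to 0.42 and that of the HSF pair from -0.03 to 0.19.

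With the replicate block, 0 members were called and the median was 0.06. The sources used here do not state whether same-numbered samples were handled together. The deviations of same-numbered samples correlated at 0.43, 0.45 and -0.07, and WT replicate 3 correlated best with KO replicate 2 (0.56). The block raised the members at an unadjusted p under 0.05 to 10 higher and 8 lower, 20.5%, against 20.4% of all genes. No protein table was used, so protein motifs are not described.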
